A study of Mus musculus with 8 samples.

Results

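The 9 genes described here code for the transcription factors that set the fate of helper T cells, and they were followed in CD4 T cells that developed in hosts with or without native insulin. They are Tbx21 and Eomes (T helper 1 and cytotoxic programs), Gata3 (T helper 2), Rora (T helper 17), Foxp3 and Ikzf2 (regulatory T cells), Bcl6 and Maf (follicular helper cells) and Prdm1 (effector cells). They were taken by symbol from a count table of 46625 gene names, and all 9 were found there, written in capitals as TBX21, EOMES, GATA3, RORA, FOXP3, IKZF2, BCL6, MAF and PRDM1. The cells were 8F10 T cells, whose T cell receptor recognises a peptide of insulin. They arose from bone marrow stem cells of CD45.2 8F10 donors that lack their own T cell receptor alpha chain, depleted of T and B cells and given to CD45.1 hosts after a non-lethal dose of radiation, so that such hosts can keep cells of their own. Hosts were NOD mice, the strain that develops autoimmune diabetes, or B16A mice, NOD mice whose insulin has a changed B chain residue that removes the peptide 8F10 cells recognise. After 6 weeks the 8F10 cells were sorted by flow cytometry from the inguinal lymph nodes, a site away from the pancreas. All samples carry the strain label NOD/ShiLtJ, and no age of the animals was used here. There were 4 libraries from NOD and 4 from B16A hosts, 1 of each in each of 4 labelled batches, and the hosts were compared within batches. The comparison asks if cells from hosts with native insulin, taken from a lymph node away from the pancreas, had moved towards a helper fate. The hosts differ in insulin throughout the body, so where the cells met it cannot be told.

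A naive helper T cell that meets its peptide can take one of several fates, and each fate rests on a factor that switches on its genes and shuts off those of the others. Tbx21 (T-bet) drives interferon gamma and Gata3 drives interleukin 4, and each opposes the other. Gata3 is also needed by every CD4 T cell during development in the thymus and for later survival. Bcl6 directs cells to help B cells in follicles, while Prdm1 (Blimp-1) directs cells to effector functions, and the pair repress each other. Foxp3 defines regulatory T cells and Ikzf2 (Helios) is high in those formed in the thymus, whereas Maf supports interleukin 10, interleukin 21 and follicular helper cells.

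Promoter sequences of 7 of the 9 genes were in the RefSeq table used here (GRCm38.p6, the assembly of mm10), each running from 250 bases before a start site to 50 after it. Of these, 3 are shown because they belong to the factor with the highest level and to 2 factors that, unlike Gata3, stood lower in batch 4 than in all other libraries. They are read 5′ to 3′ on the gene's strand, and capitals mark the motifs named below.

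Gata3, chr2:9878551-9878850, minus strand: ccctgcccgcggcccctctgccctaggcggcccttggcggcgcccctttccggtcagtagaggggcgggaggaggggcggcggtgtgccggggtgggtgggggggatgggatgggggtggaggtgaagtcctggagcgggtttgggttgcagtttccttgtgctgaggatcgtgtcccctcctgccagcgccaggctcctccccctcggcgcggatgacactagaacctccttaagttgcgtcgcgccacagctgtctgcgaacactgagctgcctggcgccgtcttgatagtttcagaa
Bcl6, chr16:23988803-23989102, minus strand: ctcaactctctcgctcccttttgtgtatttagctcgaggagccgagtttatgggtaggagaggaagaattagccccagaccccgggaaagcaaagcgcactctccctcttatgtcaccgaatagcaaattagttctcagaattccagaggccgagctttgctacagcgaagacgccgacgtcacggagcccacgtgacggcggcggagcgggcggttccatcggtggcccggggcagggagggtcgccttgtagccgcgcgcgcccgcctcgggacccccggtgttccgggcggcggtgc
Foxp3, chrX:7580233-7580532, plus strand, the second of 2 listed starts: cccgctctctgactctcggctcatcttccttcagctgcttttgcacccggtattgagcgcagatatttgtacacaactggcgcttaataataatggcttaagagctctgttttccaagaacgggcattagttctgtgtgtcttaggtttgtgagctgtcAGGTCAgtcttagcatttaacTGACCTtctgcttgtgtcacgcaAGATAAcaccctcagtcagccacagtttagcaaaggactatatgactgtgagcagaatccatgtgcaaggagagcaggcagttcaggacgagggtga

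The Gata3 promoter is 67.3% G and C with 22 CG dinucleotides, and the Bcl6 promoter shown 62.7% with 31. A second listed Bcl6 start is 51.7% G and C with 14. The first listed Foxp3 start, not shown, is 40.7% G and C with 6 CG dinucleotides and had no match to the motifs below. The Foxp3 start shown is 47.7% G and C with 8 CG dinucleotides. The median over all 32851 promoters in the table is 7, and their median G and C content is 52.7%. Short motifs of the factors themselves were searched as exact letters on both strands of the 9 listed starts of these 7 genes, and no 2 matches overlapped. Sites that differ from these letters were not counted. The motif AGATAA, which Gata3 and its relatives bind, is in 11.2% of all promoters and, among the 9, only in the Foxp3 start shown. The motif AGGTCA, which Rora and other nuclear receptors recognise, is in 16.3% of all promoters and again in that Foxp3 start alone, with 2 matches. GTAAACA, a forkhead motif, is in 3.65% of all promoters and among the 9 in that of Prdm1. GGTGTGA for T-box factors (3.98% of all), GTGAAAG for Blimp-1 (4.24%) and TGCTGAC for Maf (4.67%) had no match in the 9. A match describes letters in these windows and no binding was measured.

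Total counts ran from 4896593 to 6137666 in the 6 libraries of batches 1 to 3, and were 28301805 and 28094237 in batch 4. The batch 4 libraries stood apart in composition, with fewer genes detected (19751 and 20723, against 29729 to 33175), so results are also given without them. Markers of CD4 T cells (Cd3e, Cd3d, Cd4, Cd5, Cd28 and Trbc1) had at least 1 count in every library and summed to 3520 to 8610 CPM, the read count scaled to library size after TMM normalisation. Of 2 markers of CD8 T cells, Cd8a had at most 26 counts in a library and Cd8b1 stood at 62.6 to 186 CPM. The labels do not say that libraries of a host came from separate animals, so the p-values measure the spread between these libraries.

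Gata3 was by far the most abundant of the 9 factors, and Tbx21, Eomes and Foxp3 were near the limit of detection. To set genes side by side, CPM was divided by the length of a gene's merged exons in kb. On that scale the mean level over 8 libraries was 60.1 ± 19.8 CPM per kb for Gata3, 5.17 ± 2.05 for Bcl6, 3.07 ± 0.68 for Rora, 2.78 ± 2.81 for Maf and 2.67 ± 0.46 for Prdm1 (SD, n = 8). It was 0.791 ± 0.42 CPM per kb for Ikzf2, 0.649 ± 0.56 for Foxp3, 0.387 ± 0.22 for Eomes and 0.366 ± 0.36 for Tbx21. Gata3 stood above Bcl6 in 8 of 8 libraries and its range did not overlap that of any other factor. Prdm1 stood above Ikzf2 in 8 of 8 libraries, also without overlap. The ranges of all other neighbours in this order overlapped, and Maf stood above Prdm1 in 2 of 8 libraries only. Gata3 had a mean level per kb above that of 96.2% of the 13680 tested genes with a known length, Bcl6 above 57.6%, Foxp3 above 18.1% and Tbx21 above 7.2%.

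**Figure D1:**
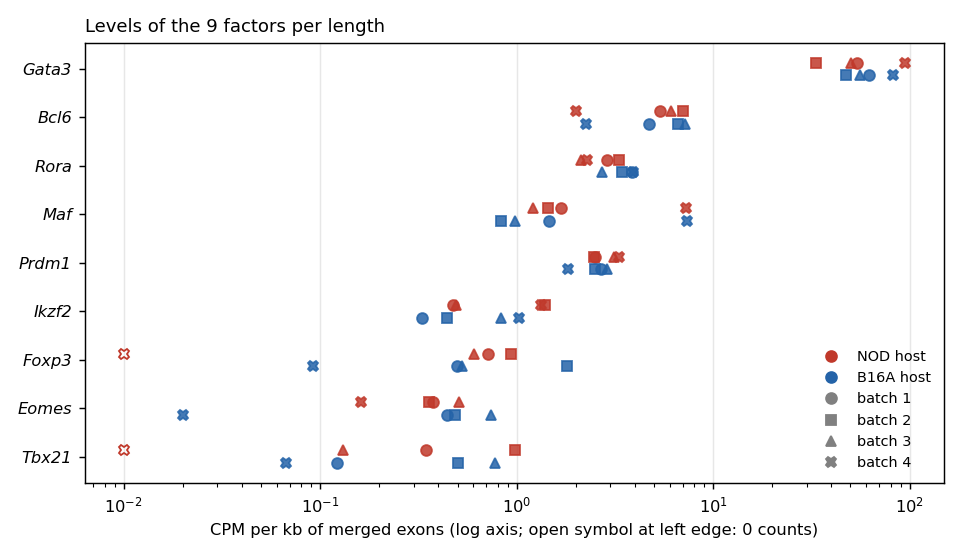
Level of each factor in each library, in CPM per kb of merged exons on a log axis (red NOD host, blue B16A host, symbols for batches, open symbols at the left edge for 0 counts, 1 symbol per library and no error bars). Gata3 lies between 33.3 and 95.2 CPM per kb, above all other factors, and the 4 lowest rows are Ikzf2, Foxp3, Eomes and Tbx21.

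Of the 8 factors that could be tested, none passed the test of host after adjustment over all genes. Rora, lower in the NOD library of every batch, had the smallest p of the 8, and its difference did not pass that adjustment. For all 9 genes the 4 NOD libraries overlapped the 4 B16A libraries, where 0.596% of the 14607 tested genes had groups that did not overlap. Counts were tested with edgeR's quasi-likelihood test with batch as a term, and 8 of the 9 passed the filter on low counts, all but Tbx21. Of these 8, 0 were called in either direction at an adjusted p under 0.05, where the share called over all tested genes was 0% higher and 0% lower in NOD hosts. At an unadjusted p under 0.05 there was 1 of 8 members, Rora, and 5.87% of all tested genes. DESeq2, which gave 2 of the members an adjusted p, also called 0 members and 0.509% of its 4129 genes, and limma voom 0 members and 0.0479% of 14607. The log2 fold changes of the 8 were positive for 4 and negative for 4, with a median of 0.10 beside 0.01 over all tested genes. With batch 4 left out, 0 members were called while 0.159% of 15716 genes were called higher and 0.0445% lower.

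**Figure D2:**
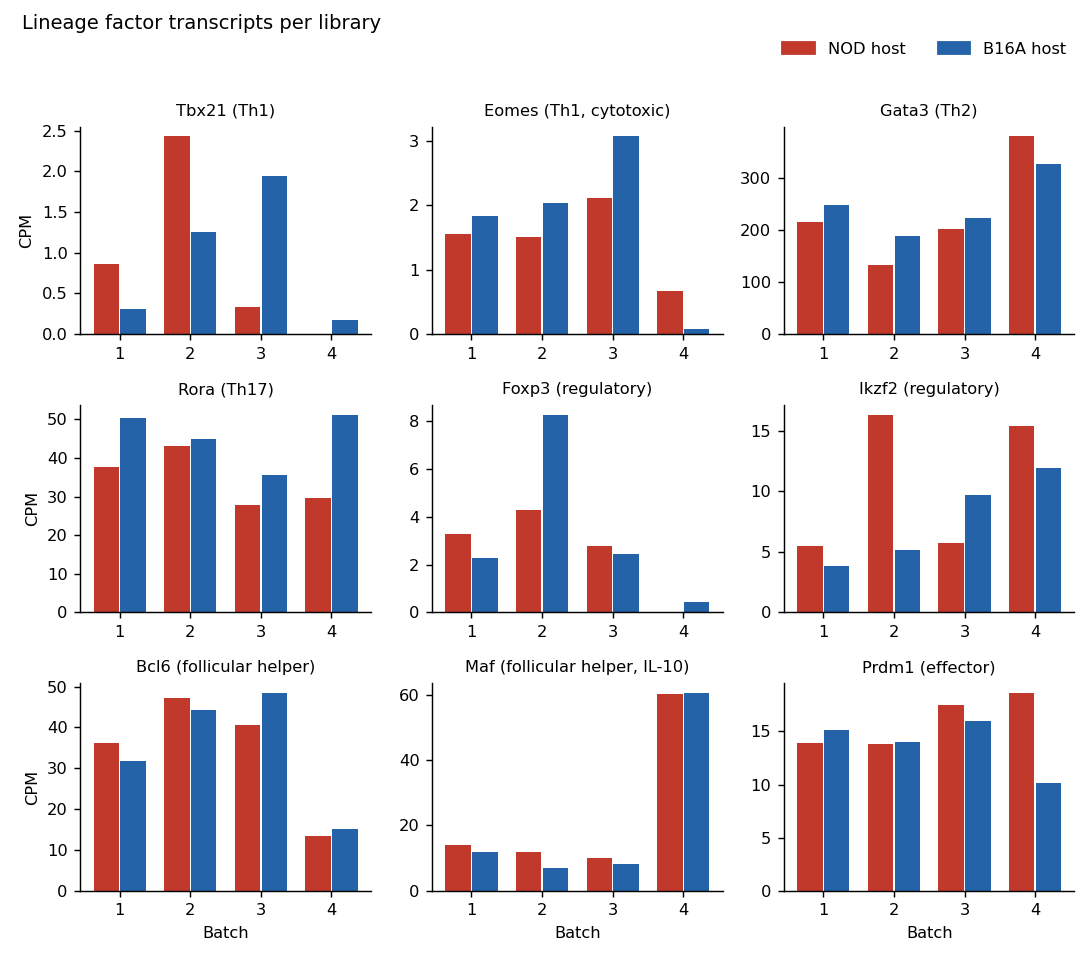
CPM of each factor in every library, by batch (red NOD host, blue B16A host, 1 bar per library, so no error bars; each panel has its own linear axis from 0). The gap between the red and blue bars of a batch varies by factor and batch. It is wide for Ikzf2 in batch 2 (16.3 and 5.15 CPM) and for Prdm1 in batch 4 (18.6 and 10.1 CPM). Maf at 60.2 and 60.5 CPM and Bcl6 at 13.4 and 15.2 CPM set batch 4 apart from the other batches.

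Tbx21, the T-box factor that drives T helper 1 cells (chromosome 11, 97098071 to 97115331, mm10), was close to absent. It had 5, 13, 2 and 0 counts in the NOD libraries of batches 1 to 4 and 2, 8, 12 and 4 in the B16A libraries. The NOD mean was 0.905 ± 1.08 CPM and the B16A mean 0.916 ± 0.84 CPM (SD over 4 libraries), and each host was the higher in 2 of 4 batches. The 0 counts in the NOD library of batch 4 allow up to 0.134 CPM, a limit of 3 counts that covers counting error only. Eomes, a related T-box factor of cytotoxic and memory cells (chromosome 9, 118478212 to 118486132), had 9, 8, 13 and 15 counts in NOD and 12, 13, 19 and 2 in B16A libraries. Its NOD library was the lower of the pair in batches 1 to 3 and the higher in batch 4. The log2 fold change, NOD minus B16A, was 0.23 (standard error 0.69, adjusted p = 0.996 with edgeR), and -0.40 without batch 4 (edgeR, adjusted p = 0.945).

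Gata3, the T helper 2 factor (chromosome 2, 9857078 to 9890034), stood at 215, 133, 201 and 379 CPM in the NOD libraries of batches 1 to 4 and at 247, 188, 223 and 326 CPM in the B16A libraries. It was lower in the NOD library of batches 1 to 3 and higher in that of batch 4, so the groups overlap. The log2 fold change was -0.16 (standard error 0.14, adjusted p = 0.953 with edgeR), the smallest standard error of the 8. It was -0.28 without batch 4 and -0.04 without batch 2, neither past the threshold (edgeR, adjusted p = 0.633 and 0.986).

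Rora, a nuclear receptor that supports T helper 17 cells (chromosome 9, 68653786 to 69388246), stood at 37.7, 43.2, 27.8 and 29.7 CPM in NOD libraries and at 50.5, 44.9, 35.6 and 51.2 CPM in B16A libraries. The within-batch log2 ratios were -0.42, -0.06, -0.36 and -0.78 in batches 1 to 4. Lower in all 4 batches was the direction of 6.85% of all tested genes, and higher in all 4 that of 7.43%. The log2 fold change was -0.41, standard error 0.18, and lower in 4 of 4 pairs (edgeR, unadjusted p = 0.0344, adjusted p = 0.842). With batch 1, 3 or 4 left out the unadjusted p was 0.0932, 0.0707 and 0.129, and without batch 2 it was 0.0212 (edgeR). The difference was smallest in batch 2 and largest in batch 4.

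Foxp3, the factor that defines regulatory T cells (chromosome X, 7573644 to 7595245), had 19, 23, 17 and 0 counts in the NOD libraries of batches 1 to 4 and 15, 53, 15 and 10 in the B16A libraries. In CPM that was 3.27, 4.3, 2.78 and 0 against 2.28, 8.27, 2.43 and 0.419. The 0 counts in the NOD library of batch 4 allow up to 0.134 CPM. The NOD library was higher in batches 1 and 3 and lower in batches 2 and 4. For Foxp3 the log2 fold change was -0.64 (standard error 0.72, adjusted p = 0.961 with edgeR). It was -0.12 without batch 4 and -1.17 without batch 1. Ikzf2 codes for Helios, an Ikaros family factor (chromosome 1, 69531214 to 69687245), and stood at 5.51, 16.3, 5.72 and 15.4 CPM in NOD and 3.81, 5.15, 9.71 and 11.9 CPM in B16A libraries. It was higher in the NOD library of batches 1, 2 and 4 and lower in batch 3. Its log2 fold change was 0.45 (standard error 0.38, adjusted p = 0.946 with edgeR), which was 0.05 without batch 2 and 0.84 without batch 3.

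Bcl6, the repressor that directs follicular helper cells (chromosome 16, 23965052 to 23988852), was the factor closest to no host difference. It stood at 36.1, 47.3, 40.7 and 13.4 CPM in the NOD libraries of batches 1 to 4 and at 31.7, 44.2, 48.4 and 15.2 CPM in the B16A libraries. Its log2 fold change was -0.04 (standard error 0.17, adjusted p = 0.998 with edgeR). Maf, a leucine zipper factor (chromosome 8, 115682942 to 115707794), stood at 13.9, 12, 9.97 and 60.2 CPM in NOD and 12, 6.87, 8.09 and 60.5 CPM in B16A libraries. Its NOD library was the higher in batches 1 to 3, and in batch 4 the pair differed by -0.01 on the log2 scale. The log2 fold change was 0.30 (standard error 0.21, adjusted p = 0.938 with edgeR), and 0.15 without batch 2.

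Prdm1, which codes for the effector cell repressor Blimp-1 (chromosome 10, 44437177 to 44528501), varied least of the 9 over the 8 libraries relative to its mean. It stood at 13.9, 13.8, 17.5 and 18.6 CPM in NOD and at 15.1, 14, 16 and 10.1 CPM in B16A libraries. The pairs of batches 1 to 3 differed by at most 0.13 on the log2 scale, and that of batch 4 by 0.86. Its log2 fold change was 0.23 (standard error 0.25, adjusted p = 0.961 with edgeR), and 0.00 without batch 4.

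**Figure D3:**
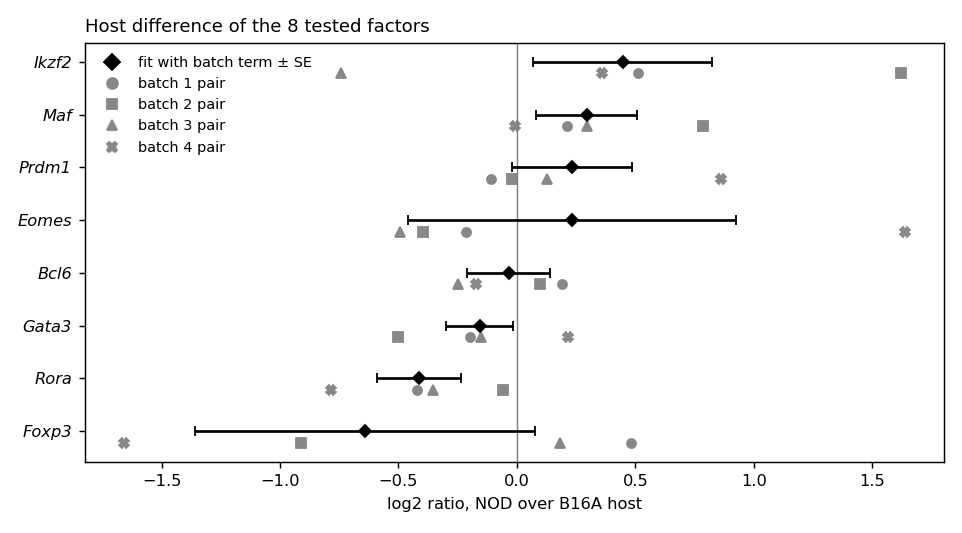
Log2 ratio, NOD over B16A host, of the 8 tested factors. Black diamonds with bars are the estimates of the fit with the batch term and their standard errors, and grey symbols below them are the ratios of the 4 pairs of libraries. Rora at -0.41 is the row whose 4 pairs all lie left of 0.

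Genes that carry out each fate were also without calls. The 7 lists of partner genes hold 97 genes, of which 67 passed the filter, and 0 of them were called in either direction with all batches or without batch 4 (edgeR). Their defining products were scarce. Il17a, the cytokine of T helper 17 cells, had 0 counts in 8 of 8 libraries. Ifng (T helper 1) reached at most 1.46 CPM, Il4 (T helper 2) 1.47 CPM, Il10 0.654 CPM and Cxcr3, a chemokine receptor of T helper 1 cells, 1.12 CPM. Cxcr5, which guides follicular helper cells, ran from 0.312 to 10.9 CPM with both of its highest values in batch 4. Low levels of a transcript in a bulk sample can mean fewer cells that carry it or less RNA in each, which cannot be told apart.

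Of the T helper 1 list 4 of 10 tested genes were positive (median log2 fold change -0.07), of the T helper 2 list 5 of 8 (0.08) and of the T helper 17 list 3 of 8 (-0.13). Of the follicular helper list 7 of 10 were positive (0.06), of the regulatory list 8 of 10 (0.33) and of the effector and memory list 6 of 9 (0.05). With each batch left out in turn these medians ran from -0.20 (batch 2) to 0.05 (batch 1) for the T helper 1 list, from 0.00 (batch 1) to 0.16 (batch 3) for T helper 2 and from -0.20 (batch 1) to -0.11 (batch 4) for T helper 17. They ran from 0.04 (batch 3) to 0.16 (batch 1) for the follicular list, from 0.14 (batch 2) to 0.36 (batch 4) for the regulatory list and from 0.02 (batch 1) to 0.23 (batch 3) for the effector and memory list. Beside them, 7498 of the 14607 tested genes were positive with a median of 0.01. The genes with the smallest p in each list follow, and none passed (edgeR, adjusted p from 0.683 for Il6st to 0.953 for Stat5a and Ccr4, and from 0.267 for Il6st to 0.992 for Ccr4 without batch 4).

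Il18r1, a receptor chain for interleukin 18, had a NOD mean of 61.6 ± 29.2 CPM beside 81.7 ± 33.3 CPM for B16A (SD over 4 libraries), and Runx3, a partner of T-bet, 118 ± 36 beside 147 ± 55.6 CPM. Of the T helper 2 list, Stat5a, a cytokine signal factor, had a log2 fold change of -0.16 and the chemokine receptor gene Ccr4 -0.79, with standard errors of 0.14 and 0.72. Il6st, the signalling chain of the interleukin 6 receptor needed to start the T helper 17 and follicular programs, stood at 735, 734, 728 and 209 CPM in NOD and at 1110, 1070, 835 and 289 CPM in B16A libraries. It was lower in the NOD library of 4 of 4 batches, as Rora was, with a log2 fold change of -0.45 and a standard error of 0.13. The ligand-binding chain gene Il6ra was also lower in 4 of 4 (-0.24, standard error 0.13).

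Btla, an inhibitory receptor, was higher in the NOD library of 4 of 4 batches (log2 fold change 0.35, standard error 0.15), and Cd200, a surface ligand of follicular helper cells, in 3 of 4 (0.85, standard error 0.37). Il2ra, the high-affinity interleukin 2 receptor chain of regulatory and activated T cells, stood at 14.3, 17.8, 12.7 and 2.91 CPM in NOD and at 7.92, 14.8, 10.8 and 0.545 CPM in B16A libraries, higher in the NOD library of each batch (0.85, standard error 0.37). Izumo1r, the folate receptor 4 gene found on regulatory and anergic cells, was likewise higher in 4 of 4 (0.71, standard error 0.28), from 0.15 in batch 2 to 1.72 in batch 4. Id2, an inhibitor of E proteins that favours effector cells, was higher in 4 of 4 (0.50, standard error 0.20). So was Zeb2, a transcriptional repressor that acts within effector T cells (0.76, standard error 0.37). Zeb2 was close to 0 in batch 4 (0.0896 and 0.0419 CPM), and its widest gap was in batch 2 (32 and 10.8 CPM), whose NOD library also had the highest myeloid and dendritic marker sums, with a part in Zeb2 that was not tested. The pair of batch 4 had 134 and 86.9 CPM of Id2, and the remaining 6 libraries had 4.05 to 9.64 CPM.

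The last list held factors that keep naive cells in place or maintain CD4 identity. All 12 were tested and 12 of 12 had a negative log2 fold change, 2 of them within 0.01 of 0 (Ets1 and Satb1), with a median of -0.15 beside 0.01 over all tested genes, and 0 were called. In batches 1 to 4, 8, 10, 6 and 10 of the 12 were lower in the NOD library. Of all 14607 tested genes, 7297, 6807, 7594 and 6845 were lower there in the same batches, so the list stood near that share in batch 3. Foxo1, which keeps T cells quiescent, stood at 721, 689, 714 and 548 CPM in NOD and at 980, 977, 860 and 644 CPM in B16A libraries, lower in 4 of 4 pairs (-0.36, standard error 0.13). Zbtb7b (ThPOK), the factor that commits thymocytes to the CD4 lineage, was also lower in 4 of 4 (-0.34, standard error 0.14). The list's median was -0.09 without batch 4.

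**Figure D4:**
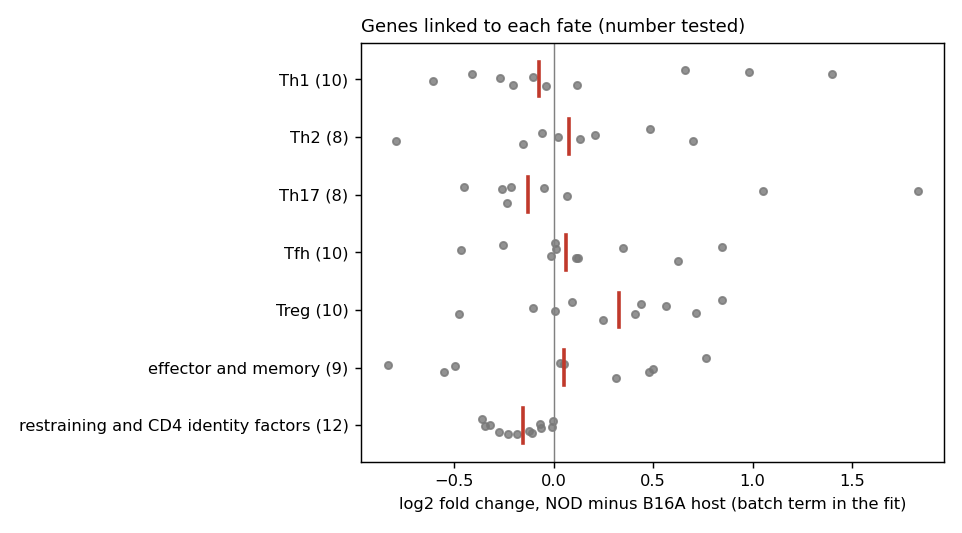
Log2 fold change, NOD minus B16A host, of the 67 tested genes of 7 lists (grey points, 1 per gene, moved up or down at random so that they can be seen; red line, median of the list; the number tested is in brackets). All 12 restraining and CD4 identity factors lie left of 0, 2 of them within 0.01 of it, and the regulatory list has a median of 0.33, or 0.14 without batch 2.

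Markers of B, plasma, myeloid, dendritic and natural killer cells were at levels like those of the scarcest factors. In batches 1 to 3 the mean level was 0.476 CPM per kb for Tbx21, 0.485 for Eomes and 0.85 for Foxp3. The median over 27 markers of B, plasma, myeloid, dendritic and natural killer cells was 0.636 CPM per kb in the same libraries, and 18, 18 and 11 of the 27 stood at or above the respective factor. The summed level of 6 B cell markers ran from 3.85 to 25.2 CPM in NOD and from 2.14 to 12.5 CPM in B16A libraries, that of 6 myeloid markers from 9.41 to 68.8 and from 8.17 to 44.3 CPM, and that of 5 dendritic cell markers from 9.23 to 52 and from 3.77 to 37.4 CPM. The 6 natural killer markers summed to 18.9 to 25 CPM in NOD and 14 to 44.6 CPM in B16A libraries, and among them Ncr1 had 0 counts in 2 of 8 libraries and Klrb1c in 3. The 4 plasma cell markers summed to 0.224 to 4.11 and 0.964 to 2.18 CPM, with Mzb1 at 0 counts in 4 libraries. Unlike these, the 4 stromal and endothelial markers summed to 288 to 371 CPM in NOD and 271 to 410 CPM in B16A libraries. Most of that was Pecam1 (269 to 403 CPM). The NOD library of batch 2 had the highest B cell, plasma cell, myeloid and dendritic sums and also the highest Tbx21 and Ikzf2 levels. Ikzf2 was nearly as high in the NOD library of batch 4 (15.4 beside 16.3 CPM), where the myeloid and dendritic sums were 9.41 and 9.23 CPM. Foxp3 was highest in the B16A library of batch 2 (8.27 CPM) and Eomes in that of batch 3 (3.07 CPM). The part of other cells in the values of these factors was not tested.

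Batch 4 stood apart from the other batches for 6 of the 9 factors, as it did for most tested genes. Maf and Gata3 stood higher in both batch 4 libraries than in any other library, and Bcl6, Foxp3, Eomes and Tbx21 stood lower in both. Maf had a mean of 60.3 CPM in batch 4 and 10.5 CPM in batches 1 to 3, a log2 difference of 2.54, and Gata3 352 and 201 CPM, a difference of 0.83. Bcl6 had 14.3 and 41.4 CPM, a difference of -1.51, and Foxp3 0.21 and 3.89 CPM. So 2 of the 9 lay above and 4 below the other libraries, where 31.8% of all tested genes lay above and 40.4% below. Rora and Prdm1 were at 40.4 and 40 CPM and at 14.4 and 15.1 CPM, and for both the NOD and B16A libraries of batch 4 lay on opposite sides of that mean.

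The scaling of the libraries shifts these differences. With TMM the median tested gene was -0.27 lower in batch 4 on the log2 scale, and with total counts, DESeq2 size factors and upper-quartile factors the median was -0.62, -0.41 and -0.93. Maf, Bcl6, Foxp3, Eomes and Tbx21 lay outside the other libraries under all 4 scalings, whereas Gata3 overlapped them with upper-quartile factors (0.16) and Prdm1 lay below them with those factors (-0.79). Batch 4 also had lower B cell, myeloid and dendritic sums than every other library (at most 3.85, 9.41 and 9.23 CPM), and whether this bears on the lower Foxp3, Eomes and Tbx21 was not tested. Markers of other T cells did not move one way in batch 4. The sum of 3 markers of gamma delta T cells was higher (234 to 298 CPM, against 51.6 to 89), with Trdc at 234 and 297 CPM, Sox13 lower than in the other 6 libraries (0.168 and 1.17 CPM, against 1.72 to 4.37) and Tcrg-C1 at 0 counts. Of the 2 genes listed for natural killer T cells, Zbtb16 had 0 counts in both libraries of batch 4 and 2.12 to 16.5 CPM in the others. Cd1d1, which is not confined to those cells, was higher (65.7 and 87.5 CPM, against 4.85 to 11.9). The CD8 sum was 123 to 186 CPM against 65.3 to 121, nearly all of it Cd8b1. The part of other T cells in the higher Maf and Gata3 was not tested. The labels say nothing of how the batches differed in handling.

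**Figure D5:**
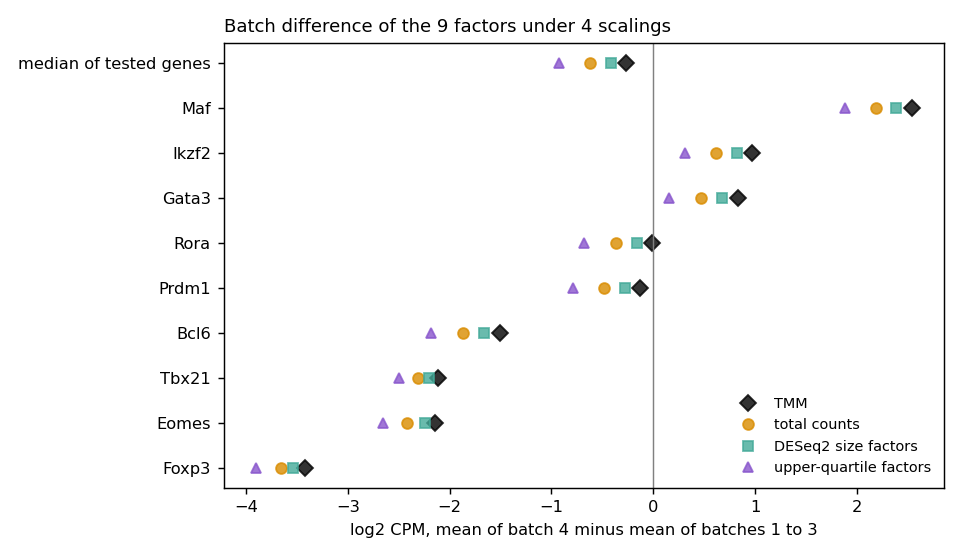
Difference of mean log2 CPM between the 2 libraries of batch 4 and the 6 of batches 1 to 3 for each factor and for the median tested gene, under 4 ways of scaling the libraries (1 symbol per scaling, no error bars). Maf lies at 1.88 to 2.54 and Foxp3 at -3.90 to -3.42, while Rora and Prdm1 lie at or below 0 by amounts that depend on the scaling.

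Ratios of factors within a library do not depend on its scaling. Bcl6 over Prdm1, per kb, was 2.16, 2.85, 1.94 and 0.602 in the NOD libraries of batches 1 to 4 and 1.75, 2.62, 2.51 and 1.25 in the B16A libraries. The follicular factor was thus above the effector factor in 7 of 8 libraries, and the lower value in each host was that of batch 4. The within-batch differences of the log2 ratio were 0.30, 0.12, -0.38 and -1.05, NOD minus B16A, with no common direction. Maf over Bcl6 was 0.126 to 0.314 in the 6 libraries of batches 1 to 3 and 3.64 and 3.24 in batch 4, so the order of these factors was the reverse in that batch. In all 4 batches this ratio was higher in the NOD library, by 0.02, 0.70, 0.55 and 0.17 on the log2 scale.

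Gata3 exceeded Tbx21 in every library. Tbx21 over Gata3, per kb, was at most 0.0293, and 3 libraries had fewer than 3 Tbx21 counts. Ikzf2 over Foxp3 was 0.664, 1.49 and 0.811 in the NOD libraries of batches 1 to 3 and 0.657, 0.245 and 1.58 in the B16A libraries. In batch 4 it was 11.2 in the B16A library and at least 45.1 in the NOD library, where Foxp3 had 0 counts and the limit of 3 was used. Tbx21 over Eomes had under 3 counts of either gene in 4 libraries and is not compared.

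Genes whose log2 CPM followed a factor most closely were sought over the 6 libraries of batches 1 to 3 among 10731 genes, as a description only. The 6 points share batches in pairs. Over so few points, the highest of 10731 values of r is high for unrelated genes too. No baseline for it was computed, so the names below show no link between genes. Lifr was the gene closest to Bcl6 (Pearson r = 0.992, Spearman rho = 0.943) and Lig4 that closest to Maf (0.992 and 0.943). Mis18a was closest to Prdm1 (0.989 and 1), Dcst1 to Ikzf2 (0.991 and 0.829), Gm27252 to Rora (0.984 and 0.943) and RP24-555M20.3 to Gata3 (0.991 and 1). The next were Gm9985 for Bcl6, Gm37566 for Maf, Hmces for Prdm1, Suv39h1 for Ikzf2, RP23-318I19.2 for Rora and Hcfc1r1 for Gata3, with r from 0.975 to 0.99. None of the 9 factors was among the 2 closest genes of these 6, and no search was made for Tbx21, Eomes and Foxp3, whose means were under 4 CPM.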

How the data were processed

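RNA was measured in 8 libraries of sorted mouse T cells. The authors deposited 1 table of raw counts of reads for each gene. Per the labels' protocols, SeqPlex amplified the cDNA and single reads of 50 bases were taken. The submitters' processing notes name STAR, HTSeq, DESeq2 and the build mm10. Not given in the sources used here are tool versions, annotation and strand setting, so overlapping and antisense genes are uncertain.

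The members and lists were chosen with earlier results of these data known. Counts were fitted over the whole table with edgeR 4.0.16 in R 4.3.3 (quasi-likelihood test, filterByExpr on host, TMM, Benjamini-Hochberg over 14607 genes, threshold 0.05) with batch as a term, because the libraries are paired by a number that the labels call a batch. Deviations from the host means correlated within batches 1 to 4 with r = 0.625, 0.702, 0.611 and 0.906 across genes. The host means include batch 4, which stood apart, so libraries of the other batches share a shift away from it. No r between libraries of different batches is given for comparison. These values therefore cannot decide if the libraries are paired, and the batch term rests on the labels. All pairs of libraries differed beyond counting noise (smallest chi-square per degree of freedom 4.57). CPM uses TMM-adjusted library sizes and log2 CPM a prior count of 2. Standard errors derive from the F statistic. Exon lengths and positions are from GENCODE vM21. The fit was tested on simulated data.

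All 9 members are named. Of each partner list up to 4 called members, else the 2 with the smallest p and a mean of at least 4 CPM, are named, with 8 defining products, of which 1 is not reported here. Alternatives were DESeq2 1.42.0, limma 3.58.1, other size factors, other filters, no batch term and each batch left out.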

Additional observations from a re-analysis of the deposited data

Results flagged for a closer look

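Maf in batch 4 stood far from the other libraries of its host, at 60.2 CPM for the NOD library and 60.5 CPM for the B16A library. The log2 ratio of Maf over Bcl6 did so in NOD hosts, at 1.86 in batch 4. In all, 23 groups of 4 libraries were examined and 3 stood out, where alike libraries would give about 1 in 20 by chance. Both batch 4 libraries differ from the rest in depth and composition, so that rate is no baseline for them. The 3 all rest on Maf in batch 4. The part of depth and composition in these values was not tested.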

How the results depend on the processing

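The counts of called lineage factors and of called partner genes stayed at 0 in each of 11 alternatives. Without the replicate block edgeR called 0 of 14607 genes and 0 members, and 34 genes had an unadjusted p under 0.05. That fit turned the direction of Eomes (-0.26) and of no other member, and it changed no call. Eomes was also negative with limma voom (-0.19) and without replicate 4 (-0.40), with a range of -0.40 to 0.47 over the 3 leave-outs in which it was tested (it was filtered out without replicate 3). Bcl6 was positive without replicate 3 (0.038) and without replicate 4 (0.0135), with a range of -0.12 to 0.038. Foxp3, Gata3, Ikzf2, Maf, Prdm1 and Rora kept their direction in 11 of 11 alternatives, with Rora between -0.53 and -0.28, Gata3 between -0.28 and -0.04, Ikzf2 between 0.05 and 0.84, Maf between 0.13 and 0.43, Prdm1 between 0.00 and 0.33 and Foxp3 between -1.17 and -0.12. Over all genes, higher and lower calls were 11 and 3 with no filter on low counts, 18 and 3 with DESeq2 and 6 and 1 with limma voom, and 0 to 25 and 0 to 7 with each batch left out. The median of the regulatory list was 0.14 without replicate 2. The mean log2 ratio of Tbx21 over Eomes was 0.36 per kb and -0.38 with no length correction. Low counts limit what can be said of Tbx21, Eomes and Foxp3. The counts ran from 0 to 53 per library and were low in the deeper libraries of batch 4 too.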
